A study of Rattus norvegicus with 6 samples.

Results

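The nuclear genes for subunits of the oxidative phosphorylation complexes were taken from single-cell RNA sequencing of rat pancreas by their symbols. Genes whose symbol starts with Ndufa, Ndufb, Ndufc, Ndufs, Ndufv, Uqcr, Atp5, Cox4, Cox5, Cox6, Cox7 or Cox8, and Sdha, Sdhb, Sdhc and Sdhd, were kept, and the Ndufaf assembly factors were left out. This gave 91 of the 32883 genes listed, of which 40 belong by symbol to complex I, 4 to complex II, 9 to complex III, 20 to complex IV and 18 to complex V. The rule uses symbols alone. The 91 identifiers carry 87 different symbols, since Cox6b1, Uqcrb, Ndufa10l1 and Ndufv3 each stand on a pair of identifiers, which may share reads, and their identifier is given with each of their values. Ndufa4 and its relative Ndufa4l2 are counted with complex I by symbol, although the Ndufa4 protein is also known as a subunit of complex IV.

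Oxidative phosphorylation is carried out in the inner mitochondrial membrane. Complex I (NADH dehydrogenase) and complex II (succinate dehydrogenase, also an enzyme of the tricarboxylic acid cycle) pass electrons through ubiquinone to complex III (cytochrome bc1) and from there through cytochrome c to complex IV (cytochrome c oxidase), and complex V (ATP synthase) uses the proton gradient built along the way. Complexes I, III, IV and V combine subunits encoded in the nucleus with subunits encoded in mitochondrial DNA, whereas complex II is encoded in the nucleus alone. In beta cells, ATP made by this chain from glucose couples glucose uptake to insulin secretion.

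All rats were male Wistar rats, and each group had 2. Young rats were 2 months old on a normal diet, old rats had been on a normal diet from 2 to 20 months of age, and HFHF-old rats had received a high-fat, high-fructose diet over the same 18 months. The cells came from islets isolated with collagenase P, and unique molecular identifiers (UMIs) were counted with a 3′ droplet method. Cells were clustered without the 91 genes and named from marker genes, the UMIs of each class were added up within a rat. The rat was the replicate, so that an exact two-sided permutation test of 2 against 2 rats cannot go below p = 0.333. Where 5 or 6 values follow one another, the young rats come first, then the old and then HFHF-old, each by replicate number.

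The libraries held 77387928 to 166875258 UMIs, with medians of 2537 (old replicate 2) to 9391.5 (HFHF-old replicate 1) UMIs per cell, and 636 barcode sequences occurred in more than 1 library. In unnamed clusters 11.9% of the 75201 cells were found, among them 3 clusters of 880, 762 and 193 cells seen in old replicate 2 alone and 1 of 2660 cells nearly all from young replicate 2. Leading genes by fold included Igf2 and Cdkn1c in the cluster of 880 cells, Prl7b1 and Prl2a1 in that of 762 and Actg2 and Cnn1 in that of 193. The origin of these cells was not tested. HFHF-old replicate 2 consisted mainly of NK-like cells (8181 of 11716) and had 3 beta-like, 3 alpha-like, 0 PP and 9 macrophage-like cells. Since at least 10 cells were required, HFHF-old stands on replicate 1 alone in these 4 classes, and this lone rat was taken to vary as the rats of the other groups do. Beta-like cells numbered 70 and 57 in the young rats, 105 and 273 in the old and 172 in HFHF-old replicate 1, and alpha-like cells 416, 239, 109, 408 and 27. PP cells numbered 111, 164, 53, 322 and 47. Different clusters held most beta-like cells of HFHF-old replicate 1 (160 of 172) and of old replicate 2 (195 of 273), and most acinar-like cells likewise came from different clusters in the rats.

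The promoters are shown for 3 genes whose windows hold short motifs known from genes of mitochondrial proteins. RefSeq promoters of assembly GRCr8, from 250 bases before to 50 bases after the annotated start, were found for 78 of the 91 genes (74 by symbol and 4 by an older symbol), which are 76 different windows. Letters searched on both strands were CGCATGCG (core of NRF1, nuclear respiratory factor 1), CCGGAAGT (core of the ETS family, to which GABP belongs) and AAGATGGC (core of YY1), none of which is part of another. CGCATGCG occurred in 7 of 76 windows (9.21%) against 1.81% of the 27457 windows of all genes, CCGGAAGT in 8 (10.5%) against 4.01%, and AAGATGGC in 16 (21.1%) against 3.44%. These are counts of letters and no evidence of binding. The windows below run 5′ to 3′ along the gene's strand, with every match in capitals. Uqcrc1 (core subunit of complex III) lies on the plus strand of chromosome 8 and has the NRF1 and the YY1 letters, the first match beginning at -38 from the start. Cox8a (complex IV) lies on the minus strand of chromosome 1 and has the ETS letters at 2 places and the YY1 letters. Ndufs4 (complex I) lies on the minus strand of chromosome 2 and has the YY1 letters only.
Uqcrc1 (chr8:118467973-118468272): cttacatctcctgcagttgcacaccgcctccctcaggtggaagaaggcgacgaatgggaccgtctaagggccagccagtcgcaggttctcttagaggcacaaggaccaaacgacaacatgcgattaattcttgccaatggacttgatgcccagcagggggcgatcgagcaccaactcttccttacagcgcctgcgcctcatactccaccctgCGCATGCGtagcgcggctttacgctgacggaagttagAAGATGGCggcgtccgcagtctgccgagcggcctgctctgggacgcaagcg
Cox8a (chr1:213833574-213833873): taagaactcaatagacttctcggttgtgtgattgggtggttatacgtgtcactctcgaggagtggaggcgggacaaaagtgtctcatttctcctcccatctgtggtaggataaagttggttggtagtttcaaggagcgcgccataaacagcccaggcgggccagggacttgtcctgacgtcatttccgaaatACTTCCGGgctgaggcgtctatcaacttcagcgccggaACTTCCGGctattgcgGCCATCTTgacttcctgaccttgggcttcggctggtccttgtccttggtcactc
Ndufs4 (chr2:47794865-47795164): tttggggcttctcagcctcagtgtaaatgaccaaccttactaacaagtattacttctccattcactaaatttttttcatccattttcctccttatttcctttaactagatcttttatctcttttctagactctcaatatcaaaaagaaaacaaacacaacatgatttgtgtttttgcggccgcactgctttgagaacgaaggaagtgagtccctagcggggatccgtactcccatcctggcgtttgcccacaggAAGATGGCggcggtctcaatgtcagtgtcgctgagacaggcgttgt

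Of the 91 genes, 90 had at least 1 UMI, and together they held 1.33% of all UMIs. Cox6c-ps1 had 0 UMIs, which allows up to 0.00526 CPM (UMIs per 1000000 UMIs) by counting error alone. Several muscle and testis isoforms were nearly silent, with 1 UMI for Cox8c, 7 for Cox7b2, 67 for Cox8b, 174 for Cox6a2 and 217 for Cox7a1 in all cells. Cox6b2 had 1513. Ndufa10l1 (ENSRNOG00000062245) had 7 UMIs, while the other identifier of this symbol, ENSRNOG00000016470, had 23309. Ndufs6, a complex I subunit, was counted with 96 UMIs only.

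The summed level of the 91 genes differed widely between cell classes. As CPM of all UMIs of the class in a rat, beta-like cells gave 6142 and 7097 in the young rats, 7846 and 9805 in the old and 9015 in HFHF-old replicate 1. In alpha-like cells the sums were 17453, 20497, 15063, 17402 and 13051, and in PP cells 13975, 17741, 16175, 15322 and 12082. The beta-like rats were thus below every rat of the other 2 islet classes. Acinar-like cells were the lowest, with 5835 and 5690 in the young, 4155 and 5146 in the old and 4511 and 3656 in the HFHF-old rats. Among stromal classes, fibroblast-like cells gave 10429, 14709, 11622, 15036, 11083 and 9714 in the same order. Smooth muscle-like cells gave 21614, 32948, 17028, 24494 and 20357, above the alpha-like cells of each of these 5 rats. Among immune classes, macrophage-like cells gave 16458, 18043, 14292, 18491 and 14016, and NK-like cells 14230, 16989, 15270, 19082, 11419 and 12123. All stromal cells pooled had 13094 ± 3513 and all immune cells 14790 ± 2190 (SD, n = 6 rats).

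The low level of beta-like cells depended on the denominator, while acinar-like cells stayed among the lower classes on both scales. Transcripts of secreted products, such as hormones and digestive enzymes, took 58.7 to 83.1% of the UMIs of beta-like cells and 52.1 to 73.96% of those of acinar-like cells. With UMIs outside these and outside mitochondrially encoded genes as the total, the members' CPM summed to 30814, 45366, 33932, 42962 and 24668 in beta-like cells and to 24540, 36245, 28614, 35907 and 18689 in alpha-like cells. On this scale beta-like cells lay above alpha-like cells in each of the 5 rats. Acinar-like cells had 13786, 14621, 11153, 12377, 17933 and 7666, with a mean of 12923 near that of fibroblast-like cells (12463). They stayed below beta-like and alpha-like cells in each of the 5 rats. Smooth muscle-like cells, above alpha-like cells by all UMIs, had a mean of 26924 on this scale against 28799 in alpha-like cells. Their order thus depended on the denominator as well.

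**Figure D1:**
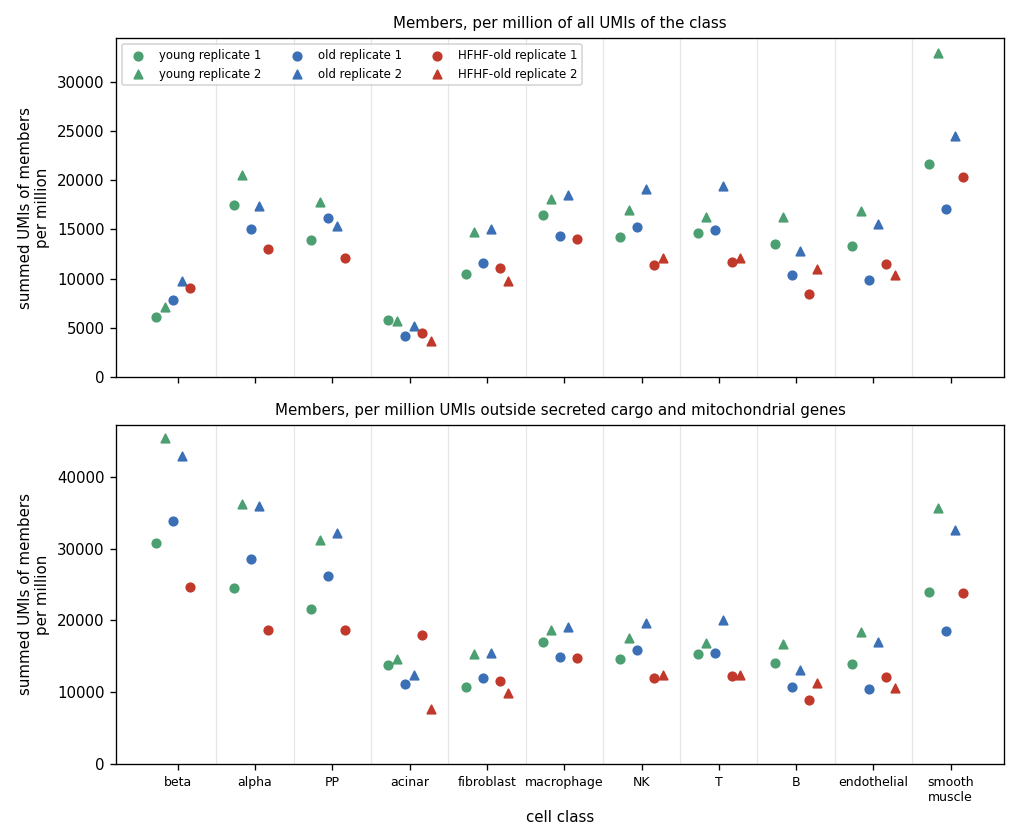
Summed CPM of the 91 genes by cell class (x axis), for each rat (1 point). The upper panel divides by all UMIs of the class and the lower by UMIs outside secreted products and mitochondrially encoded genes; beta-like cells are second lowest above (6142 to 9805) and among the highest below (24668 to 45366).

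The shares of the 5 complexes in the members' UMIs were taken over the 38 sums of a rat and class that are tested below, where complex I held 25.3 to 37.0%, complex II 1.01 to 2.53%, complex III 9.14 to 12.3%, complex IV 21.8 to 30.3% and complex V 27.4 to 33.4%. These are shares of transcripts over unequal numbers of genes, and they do not give amounts of protein. By complex, CPM in beta-like cells were 2149, 2572, 2819, 3631 and 3131 for complex I, 1517, 1812, 1924, 2331 and 2246 for complex IV and 1783, 1945, 2249, 2783 and 2662 for complex V. Complex III gave 602, 696, 742, 939 and 824 there, and complex II 90.0, 71.9, 111, 121 and 153. The order of the rats was the same for complexes I, III, IV and V. In alpha-like cells complex I gave 5825, 6991, 5157, 6165 and 4420, complex II 237, 223, 199, 191 and 234, and complex V 5370, 6170, 4499, 5145 and 3980. HFHF-old replicate 1 was the lowest alpha-like rat for complexes I, III, IV and V but not for complex II.

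Next, HFHF-old rats were set against old rats on the same feeding time, which asks what the diet adds to age. With sums scaled by TMM and tested by edgeR in 1 fit per class over all genes, 0 members passed an adjusted p of 0.05 with a change of at least 1.5-fold in any of the 7 classes. Over all genes tested, 0.0864% were called in beta-like, 0.484% in alpha-like and 0.0995% in PP cells, 0% in acinar-like, 0% in fibroblast-like, 0.0631% in macrophage-like and 0% in NK-like cells. DESeq2 called 7 members, all in NK-like cells and all lower, and the older quasi-likelihood method of edgeR called 0. The sizes below are therefore values with their errors and not called changes.

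In NK-like cells, natural killer lymphocytes that recognise and lyse other cells, both HFHF-old rats could be used. TMM-scaled sums of CPM for complex I were 3519 and 4489 in the young rats, 3912 and 5887 in the old and 2690 and 3055 in the HFHF-old rats. Complex IV gave 3961, 4937, 4331, 6707, 3114 and 3503 and complex V 4580, 5483, 4720, 6792, 3477 and 3832. Both HFHF-old rats were thus below all 4 other rats for these 3 complexes, as they were for complex III (1501, 1774, 1585, 2350, 1077 and 1283). Complex II overlapped with the young rats at 295, 319, 342, 414, 262 and 302. Old replicate 2 was the highest rat for every complex.

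Of the 81 members tested in NK-like cells, 79 were lower in HFHF-old, with a median log2 fold change of -0.73 against 0.00 over all genes tested. In 72 of the 81 every HFHF-old rat was below every old rat, and 24.4% of all genes tested were so placed. An unadjusted p under 0.05 was reached by 55 of the 81, all lower, against 13.2% of all genes. This count rested on single libraries, with 4 without old replicate 2 (5.29% of all genes), 6 without HFHF-old replicate 1 (10.5%) and 31 without HFHF-old replicate 2 (7.86%). The smallest adjusted p of a member was 0.367 (edgeR). The median was -0.42 without old replicate 2 and -0.99 without old replicate 1. Of the NK-like cells of HFHF-old replicate 2, 6044 lay in a cluster of 6942 cells and 1883 in another, both mostly its own, while 884 of 890 cells of HFHF-old replicate 1 lay in a cluster that all rats shared. All 8 NK markers were higher in the cluster of 6942 cells than in other cells, but its leading genes by fold were Cpne4, Slc27a2 and Myb, and 0 of the markers stood among the first 10. In that shared cluster alone, an alternative chosen after the data had been seen, members summed to 15627, 17038, 15448, 20334, 11431 and 12295 CPM in the order above. It held 254 cells of HFHF-old replicate 2, and 78 of 80 members tested were lower with a median of -0.80. The value over all genes and the medians with 1 rat left out are not given for it. It rests on the same rats and is not separate support.

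Values of single subunits in NK-like cells follow for core and regulatory subunits of each complex, and differences between subunits were not tested. Cox4i1, a regulatory subunit of complex IV, had 693 and 892 TMM-scaled CPM in the young rats, 815 and 1429 in the old and 626 and 630 in the HFHF-old rats. Its log2 fold change for HFHF-old against old was -0.84 (SE 0.320, edgeR adjusted p = 0.368), and the 2 groups did not overlap. Cox5a, also of complex IV, had 197, 287, 228, 385, 151 and 186 and differed by -0.87 (SE 0.317, edgeR adjusted p = 0.368). Uqcrfs1, the Rieske iron-sulfur protein of complex III, had 100.3, 137, 117, 168, 68.5 and 100.006 and differed by -0.76 (SE 0.289, edgeR adjusted p = 0.368). Uqcrc1, whose promoter is printed above, had 71.7, 70.2, 77.2, 109, 78.0 and 78.2, so that the HFHF-old rats lay between the old rats.

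Ndufv1, the subunit of complex I that accepts electrons from NADH, had 55.7, 58.2, 68.1, 85.8, 52.4 and 51.7 in NK-like cells and differed by -0.56 (SE 0.188, edgeR adjusted p = 0.367). Ndufs1, the largest iron-sulfur subunit of complex I, overlapped between groups at 19.0, 26.02, 21.5, 19.6, 17.1 and 20.8. Its log2 fold change was -0.11 with an SE of 0.242. Of the succinate dehydrogenase subunits, the flavoprotein Sdha had 64.0, 66.4, 65.4, 83.2, 64.5 and 71.8 and differed by -0.12 (SE 0.192), while the iron-sulfur protein Sdhb had 69.999, 82.2, 82.5, 102, 66.5 and 76.8 and differed by -0.37 (SE 0.200). The values of Ndufs1 and Sdha were 0.02 and 0.03 when sums were scaled to all UMIs. Atp5f1a and Atp5f1b, which form the catalytic head of ATP synthase, each differed by -0.25, with SEs of 0.186 and 0.182. Atp5f1a had 143, 158, 143, 142, 107 and 131 and Atp5f1b 293, 310, 349, 370, 316 and 289.

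**Figure D2:**
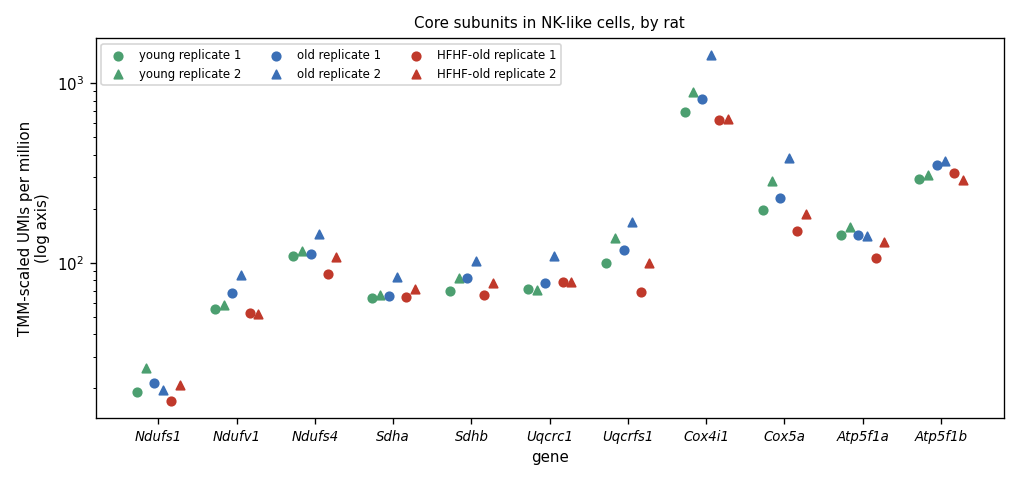
TMM-scaled CPM (log axis) of 11 core subunit genes in NK-like cells, 1 point per rat. The HFHF-old rats lie below both old rats for genes such as Cox4i1 (626 and 630 against 815 and 1429), and the HFHF-old and old rats overlap for Ndufs1, Sdha and Uqcrc1.

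The 7 members that DESeq2 called in NK-like cells were Atp5h, Atp5mc3, Atp5md, Ndufs3, Ndufs5, Ndufb4 and Ndufb11, where 2.79% of all genes with an adjusted p were called. On simulated data with a higher dispersion, DESeq2 called unchanged genes in NK-like cells more often than its threshold allows. Atp5h, a stalk subunit of ATP synthase, had 335, 416, 435, 582, 235 and 254 TMM-scaled CPM and the smallest p, with a log2 fold change of -1.05 (SE 0.237, DESeq2 adjusted p = 0.00218). By edgeR the same gene differed by -1.05 with an adjusted p of 0.367. Atp5mc3, which encodes the proton-carrying c subunit, had 141, 177, 176, 245, 108 and 119. Ndufs3, a core subunit of complex I, had 44.4, 59.9, 57.8, 89.0, 35.3 and 36.3. For these genes the HFHF-old rats were the lowest of the 6.

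In alpha-like cells, which secrete glucagon, TMM-scaled sums for complex I were 4502, 7714, 5824, 8720 and 3277 and for complex V 4149, 6807, 5081, 7276 and 2951. HFHF-old replicate 1 was below each other rat in both. Of 81 members tested, 77 were lower than in the old rats, with a median of -1.06 against -0.04 over all genes, and 77 lay below both old rats against 42.2% of all genes. An unadjusted p under 0.05 was reached by 30, all lower, against 13.3% of all genes. The count was 2 without old replicate 2 (9.31% of all genes), 49 without young replicate 1 (17.4%) and 50 without young replicate 2 (17.9%). Only 27 cells of 1 HFHF-old rat stand behind these values, and 25 of them came from 1 of the 3 alpha-like clusters and 1 from each of the others. Of the old rats, replicate 1 had 81 of 109 cells in the first cluster, while replicate 2 had 146 of 408 there and 245 in another. Most alpha-like cells of HFHF-old replicate 1 thus shared a cluster with most of old replicate 1 but not with most of old replicate 2. On simulated data with a low dispersion, edgeR as used here called unchanged genes in alpha-like cells more often than its threshold allows and gave them too many unadjusted p-values under 0.05, which the older quasi-likelihood method did not. With the older method 27 members had an unadjusted p under 0.05, against 1286 of 12179 genes.

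Beta-like and PP cells, the latter producing pancreatic polypeptide, gave a similar picture on this scale. In beta-like cells complex I had TMM-scaled sums of 2375, 4032, 2710, 4038 and 1699 and complex V of 1973, 3052, 2164, 3096 and 1446. Here 77 of 79 members were lower, with a median of -0.91 against 0.02 over all genes, and 76 lay below both old rats against 34.5% of all genes. The members with an unadjusted p under 0.05 included Cox8b, which was higher and passed the expression filter through HFHF-old replicate 1. Their count is therefore not given for this class, where HFHF-old has 1 rat. In PP cells complex I gave 4033, 6756, 5461, 7488 and 3313, and 78 of 78 members were lower with a median of -0.92 against 0.01. There 76 lay below both old rats against 36.7%, and 11 had an unadjusted p under 0.05 against 11% of all genes. The last count was 3 without old replicate 2 (6.89% of all genes), 22 without young replicate 1 (13.95%) and 27 without young replicate 2 (14.96%). Most PP cells of HFHF-old replicate 1 lay in a cluster other than that of most PP cells in old replicate 2, with 41 of 47 in the first, where old replicate 2 had 39, and 256 of 322 in the second, where HFHF-old replicate 1 had 5. The PP cells of old replicate 1 lay mostly in these 2 clusters too, with 18 and 30.

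Among the islet classes, the sign of the median depended on scaling in beta-like cells, and its size did in alpha-like and PP cells. The share of secreted products in HFHF-old replicate 1 was 58.7% in beta-like cells against 74.0004 and 74.7% in the old rats, and 27.1% against 44.6 and 49.6% in alpha-like cells. With sums scaled to all UMIs, the median of members in beta-like cells was 0.04 (45 higher and 34 lower), while that of all genes was 0.95. In alpha-like cells it was -0.28 against 0.72 over all genes, and in PP cells -0.40 against 0.52. With sums scaled to UMIs outside secreted products and mitochondrial genes, the medians were -0.63 in beta-like, -0.75 in alpha-like and -0.67 in PP cells, against 0.28, 0.25 and 0.26 over all genes. In NK-like cells 47 and 46 members had an unadjusted p under 0.05 by edgeR under these 2 scalings. The shares of all genes under them are not given, so these counts are not read as a result about the members. A scaling shifts all genes of a class by nearly the same amount, so the 3 settings are not separate support for the distance between the members and all genes.

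In acinar-like cells, which make digestive enzymes, the members did not shift together. Complex I had TMM-scaled sums of 1331, 1722, 1336, 1733, 1459 and 1416, and complex V of 1494, 1846, 1419, 1633, 1603 and 1430, and the HFHF-old rats lay between the old rats for both. Of 75 members tested, 40 were lower and 35 higher, with a median of -0.05 against -0.09 over all genes. In 13 every HFHF-old rat was below every old rat against 18.6% of all genes, and 2 had an unadjusted p under 0.05 against 2.99%. The last count was 0 without old replicate 2 (2.35% of all genes) and 3 without HFHF-old replicate 1 (9.34%). The median was 0.15 when scaled outside secreted products and mitochondrial genes and -0.22 with all UMIs, and it was 0.11 without old replicate 2, -0.24 without old replicate 1 and -0.19 without HFHF-old replicate 1, so that its sign was not settled.

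Fibroblast-like cells, the main source of extracellular matrix, were tested with both HFHF-old rats. Complex I gave TMM-scaled sums of 2999, 4584, 3434, 4850, 3221 and 2728 and complex IV of 2797, 3899, 3024, 4397, 3115 and 2589. The groups overlapped for complex IV, and young replicate 1 was as low as the HFHF-old rats. Of 82 members, 79 were lower in HFHF-old with a median of -0.40 against 0.01 over all genes, and 44 had every HFHF-old rat below every old rat, against 19.2% of all genes. The median was -0.18 without old replicate 2, -0.26 without HFHF-old replicate 2, -0.56 without HFHF-old replicate 1 and -0.62 without old replicate 1. A single member had an unadjusted p under 0.05 against 6.65% of all genes, a count of 0 without old replicate 2 (3.44% of all genes), 4 without HFHF-old replicate 1 (11.7%), 7 without old replicate 1 (4.69%) and 8 without either young rat (7.35 and 7.31%). Macrophage-like cells, phagocytes of the tissue, had complex I sums of 4586, 5082, 4292, 6144 and 3735, so that HFHF-old replicate 1 was the lowest rat and old replicate 1 the next. There 76 of 82 members were lower with a median of -0.40 against -0.01, 59 lay below both old rats against 35.3%, and 6 had an unadjusted p under 0.05 against 12.9% of all genes. The last count was 38 without old replicate 1 (14.4% of all genes), 2 without old replicate 2 (8.64%) or young replicate 1 (11.8%) and 3 without young replicate 2 (11.97%). The median was -0.14 without old replicate 2. Of the 3796 macrophage-like cells of HFHF-old replicate 1, 2456 lay in 1 of 3 clusters, led by genes such as Pdpn and Fcna, and 1124 and 216 in the others, while the same clusters held 541, 740 and 706 cells of old replicate 2 and 512, 360 and 161 of old replicate 1.

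**Figure D3:**
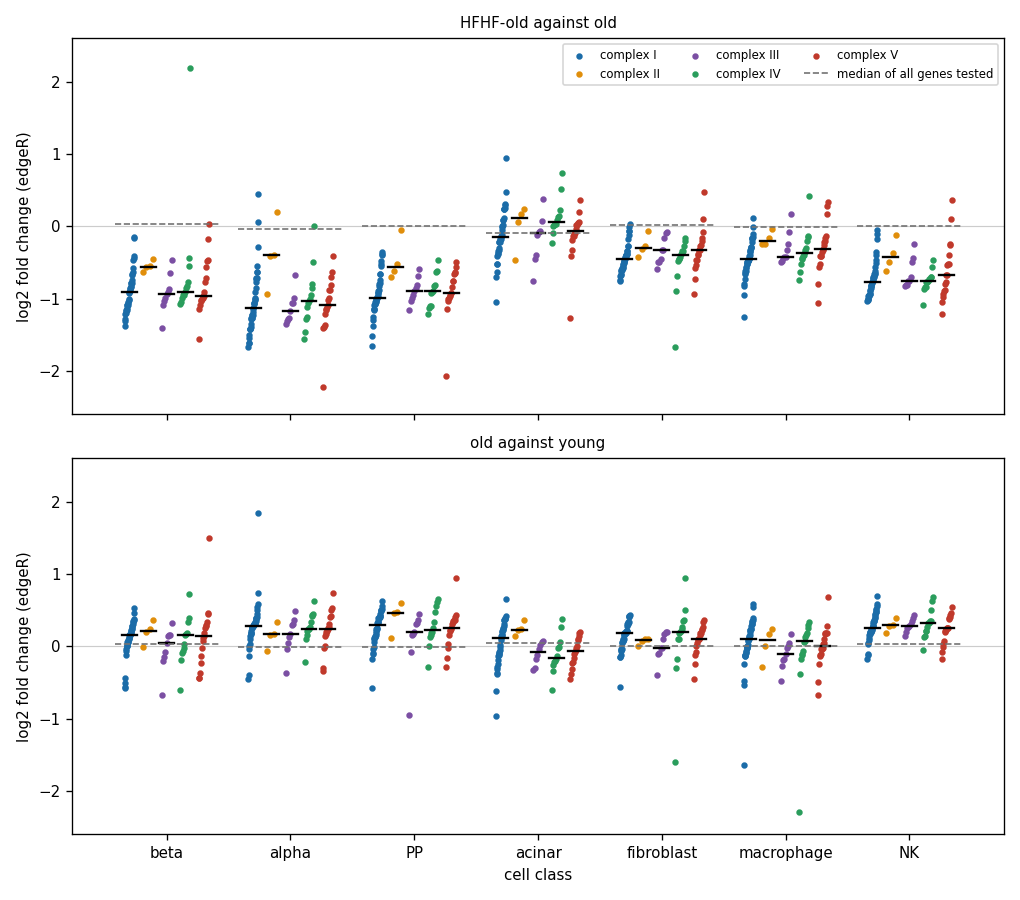
edgeR log2 fold changes (y axis) of the members tested in 7 cell classes, 1 point per gene, coloured by complex, with short bars at the median of each complex and dashed lines at the median of all genes tested. The upper panel shows HFHF-old against old and the lower old against young; 2 values in the lower panel (Cox8b in beta-like cells and Cox6b2 in alpha-like cells) lie outside the axis limit of 2.6, none of the points is a called change, and the beta-like median above turns to 0.04 when sums are scaled to all UMIs.

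By complex and TMM, the succinate dehydrogenase genes had the median nearest to 0 in each class other than acinar-like cells. For complexes I, II, III, IV and V in that order, medians for HFHF-old against old were -0.77, -0.43, -0.76, -0.75 and -0.67 in NK-like cells and -1.13, -0.40, -1.18, -1.03 and -1.09 in alpha-like cells. In beta-like cells they were -0.91, -0.56, -0.93, -0.91 and -0.96, and in PP cells -0.99, -0.57, -0.90, -0.90 and -0.92. Macrophage-like cells gave -0.46, -0.20, -0.42, -0.37 and -0.32 and fibroblast-like cells -0.45, -0.30, -0.33, -0.41 and -0.33. The macrophage-like medians were smaller with sums scaled to all UMIs, at -0.31, -0.06, -0.27, -0.22 and -0.16. In acinar-like cells the median of complex II was 0.11 and the others lay between -0.14 and 0.06. With sums scaled to all UMIs the median of complex II was 0.38 in beta-like cells, where the other complexes lay between -0.01 and 0.05, and 0.37 in alpha-like cells, where they lay between -0.38 and -0.24, so that in these classes it was not the nearest to 0. Complex II has 4 members, and the difference between complexes was not tested.

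Over the classes together, 75 members were tested in all 7. Of these, 39 were lower in HFHF-old in all 7 classes, 31 in 6 of 7, and 70 in each of the 6 classes other than acinar-like cells, while 0 were higher in all. The classes come from the same rats and are not independent of one another. The pairs counted below, and those with an unadjusted p under 0.05, include Cox8b in beta-like cells. It was higher there and passed the expression filter through HFHF-old replicate 1. Of 558 pairs of a member and a class, 506 were lower and 112 had an unadjusted p under 0.05. Over all genes, 50.3% of 74810 such pairs were lower and 10.2% had an unadjusted p under 0.05, and of the 3880 genes tested in all 7 classes, 22.2% were lower in all 7 and 32.6% in each of the 6 other than acinar-like cells.

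Atp5md, a small membrane subunit of ATP synthase known as DAPIT that takes part in joining ATP synthase into dimers, had the lowest median over classes and is named here after its values were seen. In alpha-like cells it had 106 and 158 TMM-scaled CPM in the young rats, 86.3 and 128 in the old and 22.9 in HFHF-old replicate 1, and its log2 fold change of -2.23 (SE 0.511) had the smallest adjusted p of any member, 0.105 by edgeR. It passed the call when young replicate 1, young replicate 2 or old replicate 1 was left out, in the class where too many false calls were made on simulated data. Beta-like cells had 49.4, 54.9, 30.1, 46.6 and 13.0, and PP cells 79.7, 106, 65.7, 100.3 and 19.7. In NK-like cells it had 56.6, 55.5, 43.0, 71.5, 19.0 and 30.0 and in fibroblast-like cells 36.3, 47.7, 30.9, 45.9, 20.5 and 19.3. In all 7 classes every HFHF-old rat was below every old rat. In beta-like, alpha-like, PP and macrophage-like cells this was HFHF-old replicate 1 alone. Per class, 18.6% (acinar-like) to 42.2% (alpha-like) of all genes tested were so placed. The share of all genes so placed in all 7 classes is not given. Since Atp5md was picked for its low values, its placement is not read as a result. The log2 fold changes of Atp5md ran from -2.23 to -0.94. They were also below 0 in all 7 classes under both other scalings, from -1.54 to -0.61 with all UMIs.

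Ndufs4, an accessory subunit needed for the assembly and activity of complex I and one of the genes named by the study, had edgeR log2 fold changes of -0.71 to -0.17 for HFHF-old against old over the 7 classes. In alpha-like cells it had 88.5, 114, 108, 143 and 85.9 TMM-scaled CPM and in beta-like cells 42.2, 47.6, 42.8, 47.8 and 30.2. PP cells had 98.7, 112, 108, 125 and 88.8, and the HFHF-old rat was below both old rats in each of these classes. The differences of -0.55 (SE 0.417), -0.58 (SE 0.463) and -0.39 (SE 0.448) had edgeR adjusted p-values of 0.559, 0.764 and 0.715. As CPM of all UMIs, the same alpha-like cells had 115, 103, 95.8, 101 and 116 and the beta-like cells 38.1, 30.3, 44.4, 43.0 and 55.6, so that HFHF-old replicate 1 was the highest rat in both. With sums scaled to all UMIs the log2 fold changes were 0.35, 0.24 and 0.11 in the beta-like, alpha-like and PP classes. For old against young the log2 fold changes by TMM were 0.01 for beta-like cells, 0.31 for alpha-like cells and 0.14 for PP cells, and the groups overlapped in all 3 classes. In NK-like cells Ndufs4 had 109, 116, 112, 145, 86.2 and 108.

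Old rats were then set against young rats, a comparison that shares its old rats with the one above. By edgeR 0 members were called in any class, where 0.106% of all genes were called in beta-like, 0.0985% in alpha-like, 0.179% in PP, 0% in acinar-like, 0.0145% in fibroblast-like, 0.0473% in macrophage-like and 0.0175% in NK-like cells. Unadjusted p-values under 0.05 were found for 1 member in beta-like, 1 in alpha-like, 0 in PP, 0 in acinar-like, 0 in fibroblast-like, 4 in macrophage-like and 2 in NK-like cells. The shares over all genes were 4.61, 4.88, 4.29, 2.2, 6.7, 15 and 5.09% in the same order. Single libraries moved these counts, which reached 25 in NK-like cells without old replicate 1 (7.91% of all genes), and 15 in alpha-like (9.94%), 6 in PP (9.19%) and 5 in fibroblast-like cells (6.71%) without young replicate 2. In macrophage-like cells they were 14 without old replicate 1 (12.01%), 11 without old replicate 2 (11.05%) and 2 without young replicate 2 (11.3%), and in beta-like cells at most 3, without old replicate 1 (7.93%). The older quasi-likelihood method called 0 members, and DESeq2 called 1, Atp5i in macrophage-like cells, where 3.26% of all genes were called. Atp5i, the e subunit of ATP synthase, had 429 and 488 TMM-scaled CPM in the young rats, 303 and 271 in the old and 250 in HFHF-old replicate 1, a log2 fold change of -0.67 for old against young by DESeq2 (SE 0.201, adjusted p = 0.0294).

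Medians for old against young were 0.15 in beta-like, 0.27 in alpha-like, 0.26 in PP, -0.01 in acinar-like, 0.15 in fibroblast-like, 0.04 in macrophage-like and 0.26 in NK-like cells, with medians of all genes between -0.01 and 0.04. Members higher in old rats numbered 56 of 79, 68 of 81, 65 of 78, 36 of 75, 62 of 82, 45 of 82 and 74 of 81 in the same order. With all UMIs as the scale the median was 0.50 in beta-like cells against 0.37 over all genes, -0.18 in alpha-like cells against -0.49, 0.01 in PP cells against -0.27 and -0.23 in acinar-like cells against -0.20. Without old replicate 2 the medians were -0.20 in beta-like, -0.07 in alpha-like, -0.02 in PP, -0.10 in fibroblast-like, -0.22 in macrophage-like and -0.01 in NK-like cells, so that the sign of these differences rested on that library, the one with the fewest UMIs per cell. Without young replicate 1 the medians were -0.12 in beta-like, -0.01 in alpha-like, -0.04 in PP and -0.10 in fibroblast-like cells. Leaving out the other rat of either pair moved the medians up, to 0.50 in beta-like, 0.67 in alpha-like, 0.65 in PP, 0.22 in acinar-like, 0.40 in fibroblast-like and 0.44 in NK-like cells without young replicate 2, and to 0.39, 0.50, 0.49, 0.17, 0.33 and 0.55 without old replicate 1.

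Other gene groups of mitochondria and metabolism were measured beside the subunits, and 0 genes of these lists were called by edgeR in either comparison. Unadjusted p-values under 0.05 for HFHF-old against old in alpha-like cells were found for 11 assembly factor genes of 41 tested, 13 ribosomal protein genes of 89 and 0 of 13 mitochondrially encoded genes, against 13.3% of all genes. Cytosolic ribosomal protein genes were lower in 80 of 87, 80 of 89 and 79 of 86 in the beta-like, alpha-like and PP classes, with medians of -0.78, -0.99 and -0.89, near those of the subunits. In NK-like cells 74 of 88 were lower with a median of -0.44, against -0.73 for the subunits, and in acinar-like cells 15 of 81 with a median of 0.27. The part of this shift of ribosomal genes in the result was not tested. The 13 protein-coding genes of mitochondrial DNA, which encode the remaining subunits of complexes I, III, IV and V, gave medians of 0.14, 0.01 and -0.04 in beta-like, alpha-like and PP cells, 0.10 in fibroblast-like, 0.29 in macrophage-like, 0.02 in NK-like and 0.61 in acinar-like cells.

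Assembly factor genes of the respiratory chain had medians of -0.50, -0.69, -0.38, -0.16, -0.15, -0.19 and -0.30 in beta-like, alpha-like, PP, acinar-like, fibroblast-like, macrophage-like and NK-like cells. Regulators of mitochondrial biogenesis, such as Ppargc1a, Nrf1 and Tfam, had medians of -0.02, -0.16, 0.13, -0.23, 0.10, 0.04 and 0.16, the acinar-like value resting on 1 gene. Tricarboxylic acid cycle genes gave -0.35, -0.18, -0.26, 0.27, -0.07, 0.10 and -0.16, and genes of glycolysis -0.23, -0.81, -0.61, -0.10, 0.07, 0.20 and -0.22.

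**Figure D4:**
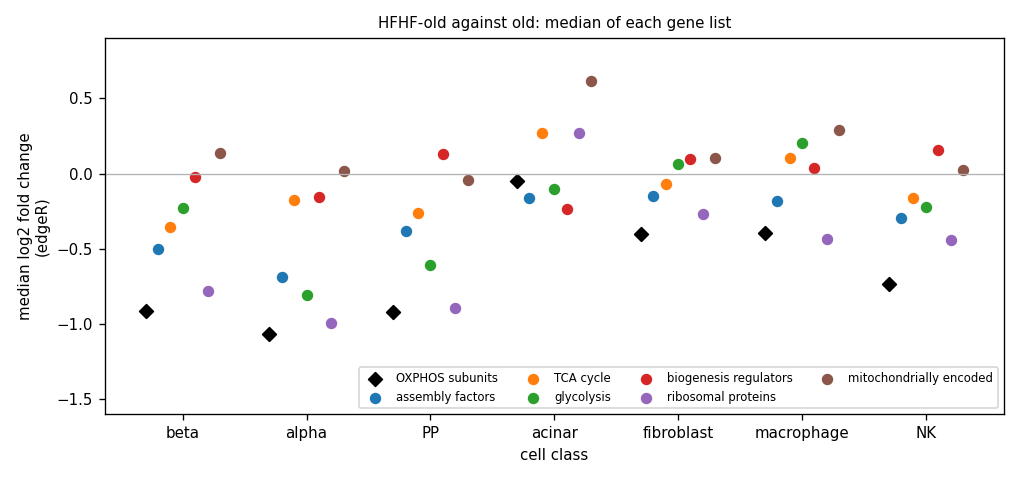
Median edgeR log2 fold change for HFHF-old against old (y axis) of 7 gene lists in 7 cell classes, 1 point per list. Subunits (-0.91, -1.06 and -0.92) and ribosomal protein genes (-0.78, -0.99 and -0.89) lie lowest in beta-like, alpha-like and PP cells, and mitochondrially encoded genes lie near or above 0; with all UMIs as the scale the beta-like median of subunits is 0.04.

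Signs of handling also differed between rats. Immediate early and heat shock genes induced by dissociation took 0.622 and 0.463% of UMIs in NK-like cells of the HFHF-old rats against 0.178 to 0.388% in the other 4, and 0.917% in alpha-like cells of HFHF-old replicate 1 against 0.322 to 0.757%. In the same rat they took 0.221% in beta-like cells against 0.0154 to 0.0811% in the other 4 rats, 0.715% in PP cells against 0.179 to 0.417% and 1.34% in macrophage-like cells against 0.652 to 1.17%. In fibroblast-like cells they took 1.76 and 2.16% in the HFHF-old rats against 0.769 to 1.73% in the other 4. Mitochondrially encoded genes took 4.80% of UMIs in beta-like cells of HFHF-old replicate 1 against 1.26 to 2.95%, and 3.55% in its macrophage-like cells against 1.73 to 3.09%. In alpha-like (3.09%), PP (2.42%) and NK-like cells (2.53 and 2.61%) the HFHF-old values lay within the range of the other rats. In acinar-like cells they were the highest and the lowest, at 0.880 and 0.163%. Fibroblast-like cells had 2.29 and 1.62%, the second being the lowest rat. Ribosomal protein transcripts took 14.2 and 15.3% of NK-like UMIs in the HFHF-old rats, 14.8 and 20.4% in the old and 16.4 and 20.0% in the young. The members took 1.14 and 1.21% of NK-like UMIs in the HFHF-old rats, 1.53 and 1.91% in the old and 1.42 and 1.70% in the young. Median UMIs per cell of the libraries were 4299, 5302, 7739, 2537, 9391.5 and 8599. Mean UMIs per macrophage-like cell were 3742, 4596, 7779, 2746 and 11953. NK-like cells had means of 6185, 7763, 9035, 3840, 7277 and 9595. The part of handling and depth in the differences was not tested.

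The paired isoforms separated 1 class from the others. Cox4i2, the form of the complex IV subunit 4 known from lung, vessels and low oxygen, had 502, 707, 733, 541 and 759 CPM in smooth muscle-like cells, at most 19.1 in endothelial-like cells and at most 3.10 in all others. Ndufa4l2, a relative of Ndufa4 induced by hypoxia and known from pericytes, had 293, 501, 381, 454 and 704 in smooth muscle-like cells, at most 18.6 in endothelial-like cells and at most 4.78 elsewhere. In both genes the lowest smooth muscle-like rat was thus above the highest value of any other class. Smooth muscle-like cells numbered 302, 154, 23, 271 and 14 in these rats, so that the highest value of each gene rests on 14 cells. The common form Cox4i1 was counted in every class, with 177, 176, 226, 359 and 302 in beta-like cells and 712, 891, 835, 1231, 673 and 638 in NK-like cells. Ndufa4 had 449, 594, 426, 523 and 351 in alpha-like cells and was lowest in NK-like cells, at 61.7, 101, 80.5, 91.5, 51.7 and 54.6.

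**Figure D5:**
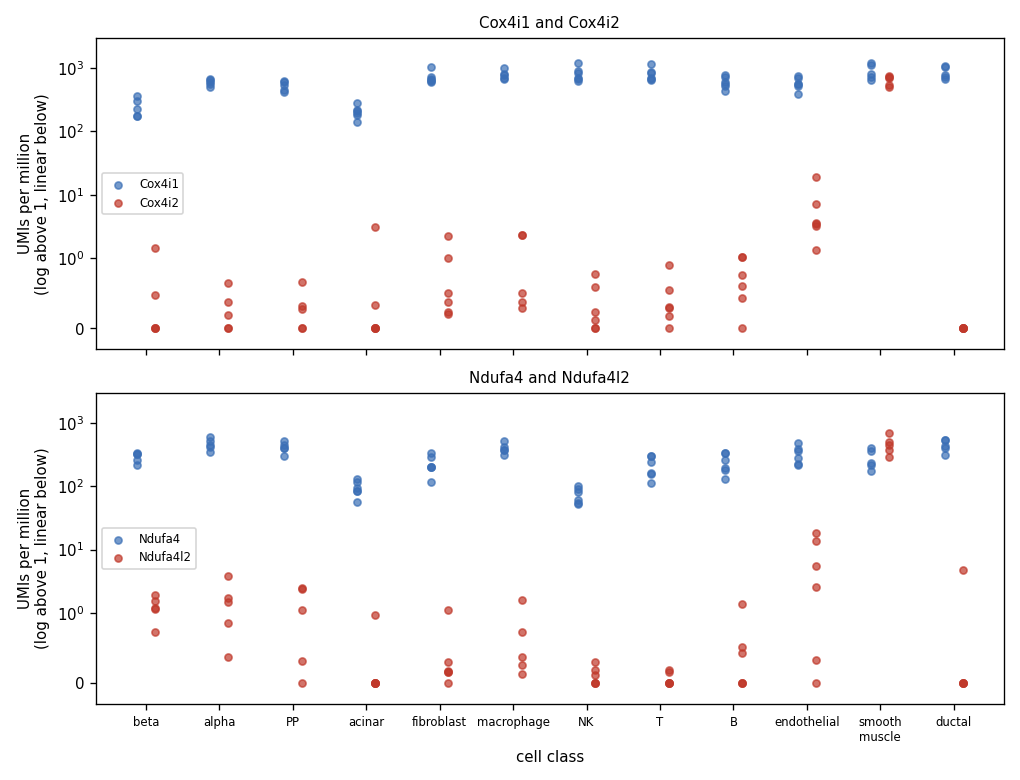
CPM (log above 1, linear below) of Cox4i1 with Cox4i2 and of Ndufa4 with Ndufa4l2 by cell class, 1 point per rat. Cox4i2 (502 to 759) and Ndufa4l2 (293 to 704) have their highest values in smooth muscle-like cells, with at most 19.1 and 18.6 in the other classes drawn.

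The muscle and testis forms of the other pairs stayed low. Cox6a2 was at most 6.93 CPM in any class and rat, and Cox6a1 had 289 to 505 in NK-like cells and 102 to 220 in beta-like cells. Cox6b2, the testis form of subunit 6b, had 22.0, 12.0, 14.4, 6.18 and 33.0 in smooth muscle-like cells and at most 11.8 elsewhere. Cox7a1 reached 60.6 in ductal-like cells of HFHF-old replicate 1 and had 16.8, 0, 1.002 and 10.5 in the others, and no gene carried the symbol Cox7a2. Cox8b, known from muscle and brown fat, had 0 and 0 CPM in beta-like cells of the young rats, 1.20 and 0.346 in the old and 5.76 in HFHF-old replicate 1, and at most 3.20 in any other class. Its log2 fold change in beta-like cells was 2.19. It had 44 UMIs there in all and passed the expression filter through HFHF-old replicate 1, where it was highest, so that no test is read from it.

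Beta-like and alpha-like cells of the same 5 rats were compared with the rat as a block. By TMM and edgeR, 9 of 78 members were higher in beta-like cells and 0 lower, with a median of 0.10, and 28.9% of all genes were called. The 5 with the largest difference were higher in 5 of 5 rats. Atp5mc1, which encodes the c subunit of the proton-driven ring, had a mean of 550 TMM-scaled CPM against 199 (log2 fold change 1.49, SE 0.0896). Ndufv3 (ENSRNOG00000001182), of the NADH-accepting module, had 193 against 71.9 (1.45, SE 0.112), and Ndufa11, a membrane subunit of complex I, had 305 against 122 (1.35, SE 0.0945). Cox5a had 90.5 against 43.7 (1.05, SE 0.105) and Ndufb5 187 against 97.8 (0.95, SE 0.0954). Cox8a, Ndufa4, Ndufa2 and Uqcrq followed with 0.83, 0.66, 0.64 and 0.59. The edgeR adjusted p-values of these 9 genes were at most 0.00092.

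Cox4i1, in contrast, had 397 in both classes with a difference of 0.01 (SE 0.095), and Ndufs4 had 66.9 against 68.4 with a difference of -0.03 (SE 0.106). The call on the 9 genes depended on scaling, since with all UMIs as the scale 72 members were lower in beta-like cells and 0 higher, where 85.9% of all genes were called lower, while with UMIs outside secreted products and mitochondrial genes 12 were higher, where 16.7% of all genes were called higher. Of the other lists, 13 of 13 mitochondrially encoded genes were higher in beta-like cells by TMM (median 1.30), as were 6 of 39 assembly factor genes and 5 of 12 tricarboxylic acid cycle genes, whereas 24 of 87 ribosomal protein genes were lower and 1 higher. Of all UMIs, the mitochondrially encoded genes took 2.95, 1.26, 2.88, 2.51 and 4.80% in beta-like cells. In alpha-like cells they took 4.54, 1.81, 2.72, 1.90 and 3.09%, which was more than in beta-like cells in the young rats.

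Between macrophage-like and fibroblast-like cells of the same 5 rats, 19 of 81 members were higher in macrophage-like cells and 2 lower, with a median of 0.35, where 49.1% of all genes were called. Atp5if1, the inhibitor of ATP synthase in its hydrolytic direction, had a mean of 480 against 221 TMM-scaled CPM (log2 fold change 1.12, SE 0.108). Sdhd, a membrane anchor of succinate dehydrogenase, had 104 against 52.6 (0.99, SE 0.0876). Ndufb7 had 218 against 115 (0.90, SE 0.116), Atp5mc1 311 against 171 (0.86, SE 0.125) and Ndufa13 322 against 184 (0.81, SE 0.1103). These 5 were higher in 5 of 5 rats with edgeR adjusted p-values of at most 0.000335.

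The 2 members called lower in macrophage-like cells were Ndufv3 (ENSRNOG00000027593) and Ndufs4. The first was rare, with 0.587 against 1.53 TMM-scaled CPM (-1.49, SE 0.309). Ndufs4 had 87.9 against 132 (-0.59, SE 0.0875, edgeR adjusted p = 0.000377) and was lower in 5 of 5 rats, just past the limit of 1.5-fold, and its value was -0.53 to -0.57 and short of that limit when young replicate 1 or 2, old replicate 1 or HFHF-old replicate 1 was left out. Sdha, with 63.1 against 61.1, and Cox4i1, with 819 against 729, were not called. By TMM the share of members called lay below that of all genes in both comparisons of classes.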

How the data were processed

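Single-cell suspensions of isolated rat islets were sequenced by a droplet method, and the authors aligned reads to Rnor_6.0 and counted UMIs with Cell Ranger. The deposited files hold raw UMI counts per gene and barcode, with Ensembl identifiers and symbols and no coordinates. Cells with under 200 genes, over 25% mitochondrial UMIs or a number of genes in the top 1% were left out, which kept 75201 of 78024 barcodes. Doublets were labelled but kept, and free RNA was not subtracted. Cells were scaled to 10000 UMIs and clustered on 2000 variable genes without the 91 members (Leiden, resolution 1), and clusters were named from marker lists. PP cells were taken by hormone.

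UMIs were summed per rat and class, with at least 10 cells. Sums were scaled by TMM and tested with edgeR 4.0.16 (quasi-likelihood, R 4.3.3) over all genes passing its expression filter, with Benjamini-Hochberg adjustment. A call needed an adjusted p under 0.05 and a change of at least 1.5-fold. For each SE, the size of the fold change on the log2 scale was divided by the root of F. Classes of the same rats were compared with the rat as a block. The fit was tested on simulated sums of alpha-like and NK-like cells. In a first simulation with low dispersion, too many unchanged genes were called in alpha-like cells, where HFHF-old has 1 rat, but not in NK-like cells, and the older quasi-likelihood method and DESeq2 kept to the threshold. A second simulation with higher dispersion and larger changes was added after this result, and there DESeq2 exceeded the threshold in NK-like cells and edgeR did so slightly. The main method was kept, so shares of genes called and unadjusted p-values in classes with 1 HFHF-old rat may be too liberal. DESeq2 1.42.0, the older quasi-likelihood method, no filter on low counts, a replicate block, removal of labelled doublets, islet classes by hormone, and each rat left out were tried as alternatives. The scalings to all UMIs and to UMIs outside secreted products and mitochondrial genes, and the NK cluster shared by all rats, were added after the data had been seen.

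The members and the gene lists were chosen with earlier results of these data known. Genes named were members called by edgeR between conditions (at most 8 per class, of which there were 0), 1 or 2 core subunits per complex, Ndufs4, the paired isoforms, and in comparisons of classes the 5 members with the largest called difference in each direction. Atp5md and the members called by DESeq2 were named after their values were seen, as were the called members beyond the 5 and the leading genes of clusters. Precision was set by the number of rats, and limits for a count of 0 (3 UMIs) cover counting error only. Nothing given ties equal replicate numbers in different groups to a shared litter or day, and p-values measure the spread between these rats. Between conditions, this spread comes from young and old rats alone in beta-like, alpha-like, PP and macrophage-like cells, where HFHF-old has 1 rat.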

Additional observations from a re-analysis of the deposited data

How the results depend on the processing

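The call of members by edgeR was 0 in each class and both comparisons under TMM. DESeq2 called 7 members for HFHF-old against old and 1 for old against young, with the shares of all genes given above. With 1 rat left out, Atp5md was the only member called for HFHF-old against old, in alpha-like and PP cells, where HFHF-old has 1 rat. With all UMIs as the scale, medians for HFHF-old against old were 0.042 in beta-like, -0.28 in alpha-like and -0.40 in PP cells, and the alpha-like median for old against young was -0.18. Leaving out 1 rat gave medians for HFHF-old against old of -0.62 to -0.14 in macrophage-like, -0.99 to -0.42 in NK-like and -0.24 to 0.11 in acinar-like cells, and for old against young of -0.22 to 0.22 in macrophage-like cells. Between beta-like and alpha-like cells 4 members were called with the rat left out of the model (no replicate block), and the main fit called 28.9% of all genes there. With all UMIs as the scale 72 were called, where 85.9% of all genes were called lower, and Ndufb5 turned to -0.39 and Cox5a to -0.28. Between macrophage-like and fibroblast-like cells leaving out 1 rat gave 13 to 26 calls, and the main fit called 49.1% of all genes there. The shares of all genes with 1 rat left out, or without the replicate block, are not given. These counts are therefore not read as a result about the members. Mean levels with UMIs outside secreted products and mitochondrial genes as the denominator were 35548 in beta-like, 28799 in alpha-like, 25969 in PP and 12923 in acinar-like cells.

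For HFHF-old against old in NK-like cells, Ndufs1 was 0.0029 without the filter, 0.020 with all UMIs and 0.024 with UMIs outside secreted products, and Sdha was 0.034 and 0.040 under these scalings. Leaving out 1 rat gave -0.29 to 0.065 for Sdha, -0.48 to 0.021 for Uqcrc1 and -0.27 to 0.018 for Ndufs1. Ndufs4 was 0.35 in beta-like, 0.24 in alpha-like and 0.11 in PP cells with all UMIs. The cause of these turns was not tested.

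With the replicate number as a replicate block, 0 members were called, and medians for HFHF-old against old were -0.56 in beta-like, -0.76 in alpha-like, -0.61 in PP and -0.71 in NK-like cells. Deviations of equally numbered rats correlated at -0.112 to 0.227 across genes, and the numbers were not taken to pair the rats. The lone HFHF-old rat in 4 classes, 2 rats per group and 27 alpha-like cells limit what could be detected.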
